A study of Homo sapiens with 4 samples.

Results

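The genes LIFR, IL6ST, JAK1, STAT3, SOCS3 and PIM1, which carry the signal of the cytokine LIF from the cell surface to its target genes, were compared between naïve human ESCs grown in 2-D and in 3-D culture. They were taken by name, and all 6 were matched by their Ensembl identifiers among the 60564 genes of the count files. RNA-seq was performed on Elf1 cells, which are human ESCs that were established from an embryo at the 8-cell stage and are kept in a naïve state. The 2-D grown cells were adherent on Matrigel-coated plates, while the 3-D grown cells had been encapsulated as single cells in scaffolds that self-assemble from PEG-8-SH and PEG-8-Acr, 2 polyethylene glycol polymers, and kept there for 21 days. The replicates, 2 per condition, were biologically independent but came from this single line. Both conditions received the same medium, which contained human LIF and FGF2 and the inhibitors of GSK3 and MEK that hold cells near the naïve state. The MEF feeders on which the line is maintained had been removed before encapsulation.

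LIF binds a receptor made of LIFR and IL6ST (gp130), the signal-transducing chain that is shared by the whole IL-6 family of cytokines. The receptor has no kinase activity of its own, and JAK kinases bound to its intracellular part, foremost JAK1, phosphorylate it and the transcription factor STAT3, which then enters the nucleus. STAT3 induces SOCS3, which blocks JAK activity at the receptor and so closes a feedback loop, and PIM1, a serine/threonine kinase that promotes survival and growth. The pathway sustains self-renewal of naïve mouse ESCs, and LIF is part of many naïve human media. RNA levels do not measure phosphorylation of STAT3, so the readouts here are the transcripts of the components and of the targets.

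CISH, a SOCS family member, is often read as a reporter of STAT activity, though not of STAT3 in particular. The sequence in front of its start site shows the motif in question. STAT dimers bind the palindrome TTCNNNGAA, and some sites have the variant TTANNNGAA. Windows of 250 bases before the start were searched for both, on both strands. TTCNNNGAA reads the same on either strand and was found in 6.57% of the 35116 RefSeq windows of this length, and TTANNNGAA or its reverse complement in 8.28%. The window before CISH held 4 matches to TTCNNNGAA, at positions -241, -230, -129 and -112, counted back from the first transcribed base. It is given here from 5′ to 3′ on the strand of the gene, chr3:50611775-50612024 of GRCh38.p14 (RefSeq, minus strand), with the matches in capitals.
CISH: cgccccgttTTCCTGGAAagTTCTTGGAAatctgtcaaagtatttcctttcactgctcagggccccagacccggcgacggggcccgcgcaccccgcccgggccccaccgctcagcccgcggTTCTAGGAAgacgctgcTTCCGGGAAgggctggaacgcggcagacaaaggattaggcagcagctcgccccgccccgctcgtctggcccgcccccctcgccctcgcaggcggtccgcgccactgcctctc

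LIFR has several annotated starts, and 2 of its 3 RefSeq windows held 1 match to TTCNNNGAA each. These windows, chr5:38595406-38595655 and chr5:38557468-38557717 of GRCh38.p14 (RefSeq, minus strand), are given next with the match in capitals, since the count of LIFR sums over transcripts from all of its starts.
LIFR, upstream start: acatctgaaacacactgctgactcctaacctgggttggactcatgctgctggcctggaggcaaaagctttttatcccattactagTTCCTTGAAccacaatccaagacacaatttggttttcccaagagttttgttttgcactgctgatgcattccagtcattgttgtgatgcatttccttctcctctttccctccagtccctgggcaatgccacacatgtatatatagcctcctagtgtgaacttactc
LIFR, middle start: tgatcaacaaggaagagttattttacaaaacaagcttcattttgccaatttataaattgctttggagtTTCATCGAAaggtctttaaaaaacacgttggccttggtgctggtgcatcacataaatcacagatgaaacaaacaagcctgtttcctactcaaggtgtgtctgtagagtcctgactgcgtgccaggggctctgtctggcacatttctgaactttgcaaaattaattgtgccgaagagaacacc

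The window of IL6ST held 1 match to TTANNNGAA, and the RefSeq windows of JAK1, STAT3 and PIM1 held none. The window of SOCS3 is not reported here. A match describes letters in these windows and does not show binding, or which STAT factor would bind.

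Counts summed to 33833778 and 30114220 in the 2-D libraries and to 21154409 and 18276147 in the 3-D libraries. Values are CPM, counts scaled to the TMM-normalized total of their library, and differences were tested with edgeR's quasi-likelihood test on the 22555 genes that passed its filter on low counts. A gene is called at a Benjamini-Hochberg adjusted p below 0.05, which 7.9% of the tested genes reached, 4.54% as higher and 3.36% as lower in 3-D grown cells. A fold change above 1 means a higher level in 3-D grown cells, SE is its standard error on the log2 scale, an error after ± is an SD over 2 replicates, and an interval is a 95% confidence interval from the same fit. Core pluripotency markers were abundant, with a summed level of 2782 to 2874 CPM over POU5F1, SOX2, NANOG, LIN28A, PRDM14 and SALL4. Of the 8 naïve markers, DPPA5 and ARGFX were under 1 CPM in every library. KLF17 was low as well, with 0.46 and 0.94 CPM in the 2-D and 1.07 and 0.89 CPM in the 3-D libraries. TFCP2L1 had 22.2 to 23.8 CPM and DNMT3L 14.6 to 17.5 CPM over the libraries, and KLF4, DPPA3 and SUSD2 lay between 5.75 and 10.4 CPM. No naïve marker was called. The sum of all 8 lay between 62.6 and 66.4 CPM. Of the 6 primed markers, SFRP2 and THY1 were called higher in 3-D grown cells, with log2 fold changes of 0.28 and 0.22. ZIC2 and DUSP6 had 0.12 and 0.49, and OTX2 and CD24 had -0.016 and -0.024, all without a call. The sum of all 6 was 1109 and 1125 CPM in 2-D and 1120 and 1156 CPM in 3-D grown cells. Of the fibroblast markers, COL1A1 and COL3A1 were called higher in 3-D grown cells, COL1A2 and PDGFRB had log2 fold changes of -0.04 and 0.02 without a call, and LUM and DCN were under 1 CPM, with a summed level over all 6 of 454 to 461 CPM in 2-D and 462 to 504 CPM in 3-D grown cells. The part of these markers in the results was not tested.

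None of the 6 pathway genes was called. edgeR's quasi-likelihood test gave an unadjusted p below 0.05 for JAK1 alone, and DESeq2 called 0 of the 6 as well. Over all tested genes, 21.3% had an unadjusted p below 0.05 and 3.7% were called by DESeq2. With 6 genes, these counts cannot be told apart from those shares. All 6 intervals excluded a change beyond 0.5 on the log2 scale, with the outermost bound at 0.28 for SOCS3. The same held for 12639 of the 22555 tested genes. The median absolute log2 fold change of the 6 genes was 0.0571, compared with 0.129 over all tested genes. The latter include low genes with wide intervals, and the comparison was not matched for level. These are bulk values, in which fewer cells that express a gene and less RNA per cell cannot be told apart.

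**Figure D1:**
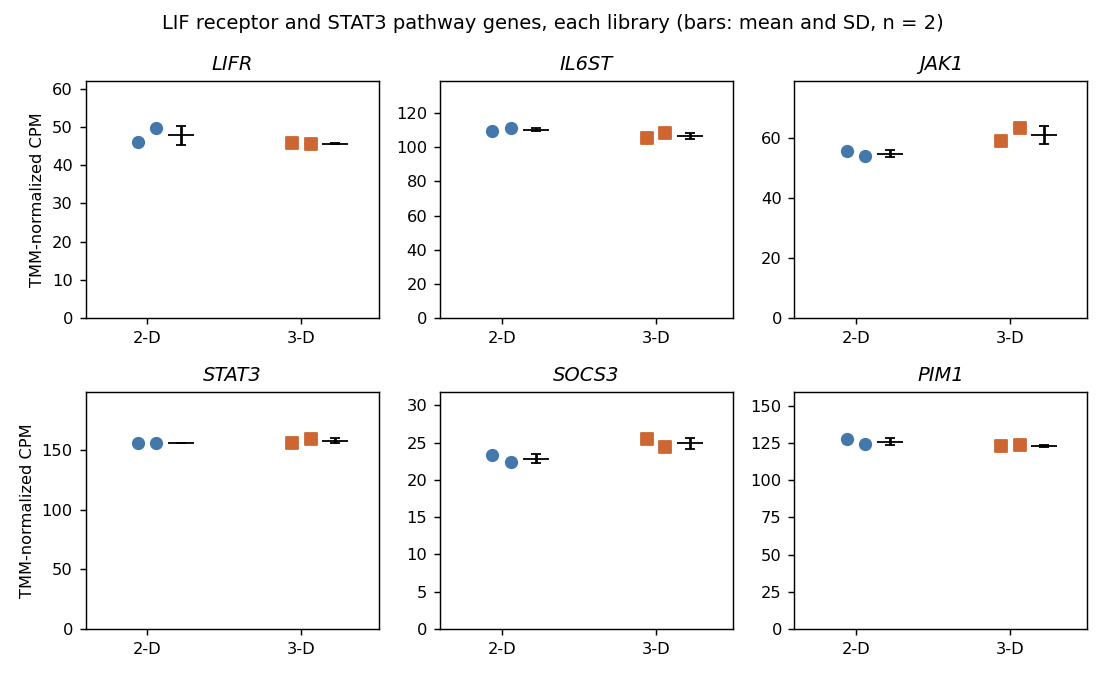
TMM-normalized CPM (y axis, from 0) of the 6 pathway genes in each 2-D (circles) and 3-D (squares) library, with the mean and SD of each condition (n = 2) drawn beside the points. The conditions lie close together in every panel, from 22.4 to 25.4 CPM for SOCS3 and from 156 to 159 CPM for STAT3, and the widest relative gap is that of JAK1.

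Of the receptor chains, LIFR (chromosome 5, from 38474668 to 38608354) had 46.1 and 49.6 CPM in the 2-D libraries and 45.7 and 45.6 CPM in the 3-D libraries. The 3-D values lay just under the lower 2-D value, and 2-D replicate 2 stood above the other 3 libraries. Its log2 fold change was -0.07 (SE 0.05, edgeR adjusted p = 0.522), with an interval from 0.883-fold to 1.03-fold, and it was -0.0133 without 2-D replicate 2. IL6ST (chromosome 5, from 55935095 to 55995022) had 109.6 and 111 CPM in the 2-D and 105 and 108 CPM in the 3-D libraries. Both 3-D libraries were again slightly lower, by a log2 fold change of -0.05 (SE 0.03, edgeR adjusted p = 0.437), with an interval from 0.923-fold to 1.01-fold. IL6ST was called lower when library size was the only scaling, with a log2 fold change of -0.112 and an adjusted p of 0.0485, in a range of 0.0485 to 0.844 over the settings tried. That scaling moved the median of all genes to -0.0646.

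JAK1 (chromosome 1, from 64833223 to 65067754), the kinase at the receptor, was the gene nearest to a call. It had 55.7 and 54.0 CPM in the 2-D and 59.0 and 63.3 CPM in the 3-D libraries. Both 3-D libraries were above both 2-D libraries, with a mean of 54.9 ± 1.20 CPM in 2-D and 61.2 ± 3.04 CPM in 3-D grown cells (n = 2 each). The log2 fold change was 0.16 (SE 0.05, edgeR adjusted p = 0.0573), with an interval from 1.04-fold to 1.19-fold. It was called in 2 of the 9 settings plotted beside the reported one, with an adjusted p of 0.0327 without a filter on low counts and of 0.00748 without 3-D replicate 1, where the log2 fold change was 0.21. Without 3-D replicate 2 it was 0.11, and the adjusted p ranged from 0.00748 to 0.368 over these settings. The fold change was positive under all of them, which leaving out a library could hardly change, since the conditions did not overlap. A fit with a replicate block, which is not plotted, also called JAK1, with a log2 fold change of 0.155 and an edgeR adjusted p of 0.035.

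STAT3 (chromosome 17, from 42313324 to 42388540), the transcription factor of the pathway, differed least. It had 155.6 and 155.7 CPM in the 2-D and 156.2 and 159 CPM in the 3-D libraries. The 3-D libraries were higher by less than the gap between them, with a log2 fold change of 0.02 (SE 0.03, edgeR adjusted p = 0.793) and an interval from 0.969-fold to 1.059-fold. Scaling by library size alone turned its sign, to -0.0461.

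**Figure D2:**
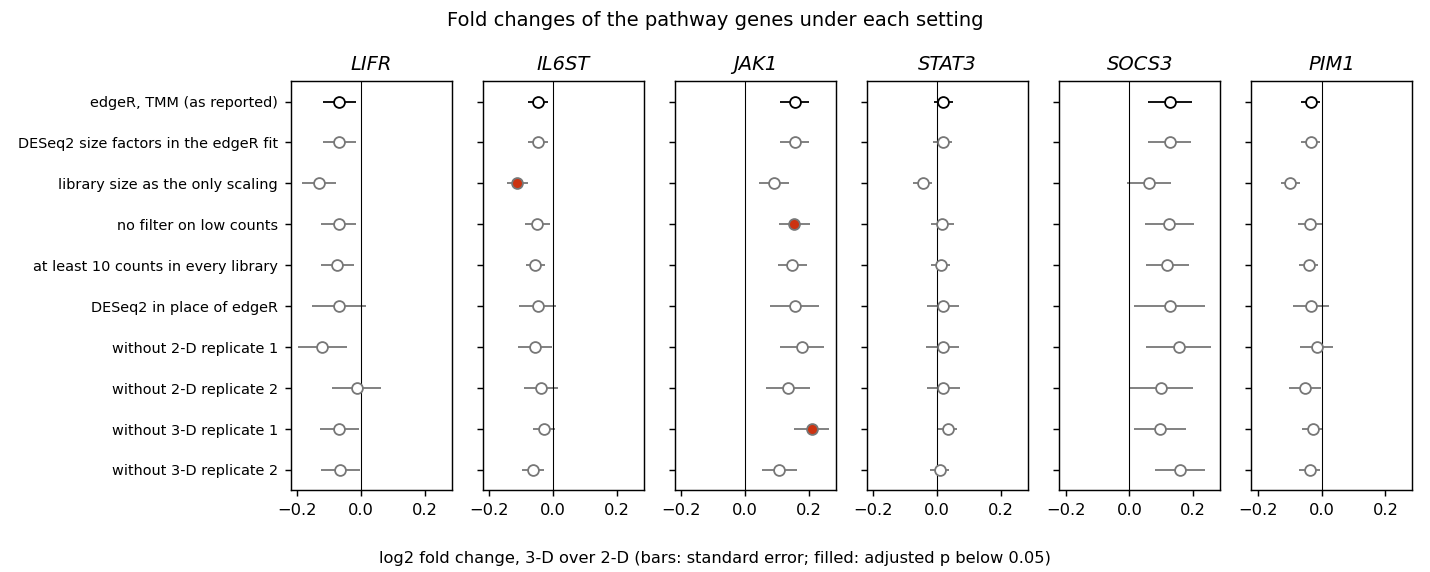
log2 fold change, 3-D over 2-D (x axis), of the 6 genes under the reported fit and 9 other settings (y axis), with standard errors (SE) as bars and filled points for an adjusted p below 0.05. JAK1 stays to the right of 0 and is filled without a filter on low counts and without 3-D replicate 1, and IL6ST is filled with library size as the only scaling.

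The fold changes of the induced genes had opposite signs, but neither gene was called and both intervals included no change. SOCS3 (chromosome 17, from 78356778 to 78360077), the feedback inhibitor, had 23.3 and 22.4 CPM in the 2-D and 25.4 and 24.4 CPM in the 3-D libraries. Both 3-D libraries were above both 2-D libraries, with a mean of 22.8 ± 0.613 CPM in 2-D and 24.9 ± 0.757 CPM in 3-D grown cells (n = 2 each). The log2 fold change was 0.13 (SE 0.07, edgeR adjusted p = 0.322), with an interval from 0.985-fold to 1.21-fold. SOCS3 had the fewest counts of the 6 genes, 437 to 801 per library, and the widest interval. PIM1 (chromosome 6, from 37170152 to 37175428) had 127.7 and 124.5 CPM in the 2-D and 122.8 and 123.7 CPM in the 3-D libraries. The 3-D libraries were lower, by a log2 fold change of -0.03 (SE 0.03, edgeR adjusted p = 0.59), with an interval from 0.934-fold to 1.02-fold.

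The libraries of the conditions did not overlap in any of the 6 genes, with 3 higher in 3-D (JAK1, STAT3 and SOCS3) and 3 lower (LIFR, IL6ST and PIM1). Such a lack of overlap was found in 50.5% of all tested genes, in 25.4% with the 3-D and in 25.1% with the 2-D libraries above. The median log2 fold change of the 6 genes was -0.00764, and that of all tested genes was -0.000135.

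**Figure D3:**
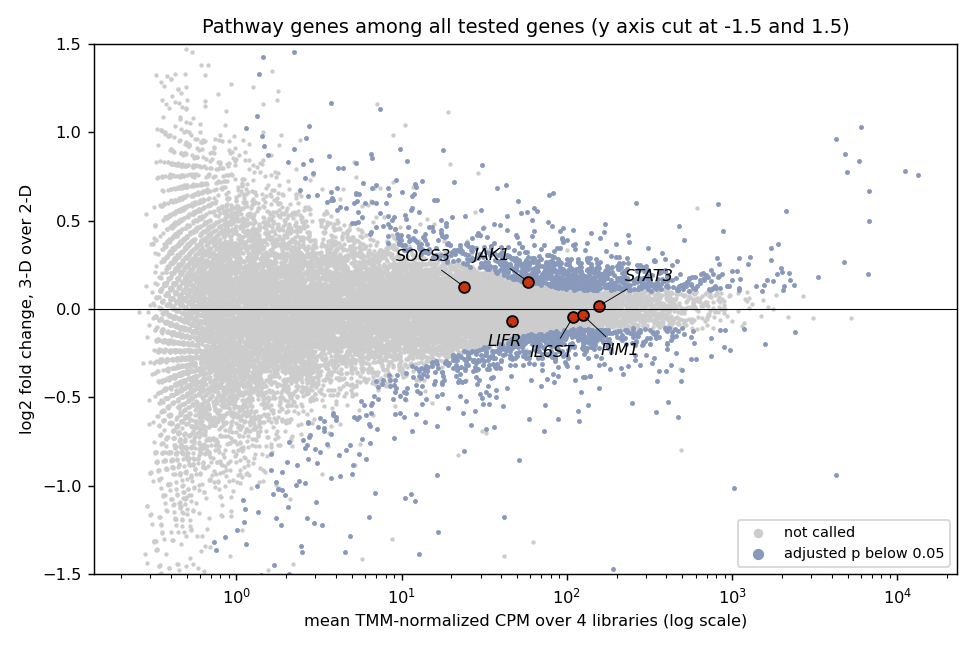
log2 fold change, 3-D over 2-D (y axis, limited to between -1.5 and 1.5, which leaves out 108 genes) against the mean CPM over the 4 libraries (x axis, log scale) of the 22555 tested genes, called genes in blue. The 6 pathway genes (red) lie close to 0 among the genes that were not called, with JAK1 the highest of them.

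Per length of merged exons, the order of the levels was PIM1, STAT3, IL6ST, SOCS3, JAK1 and LIFR. PIM1 had a mean of 41.2 CPM per kb over the 4 libraries, and STAT3 had 13.97. IL6ST and SOCS3 followed with 8.997 and 8.73 CPM per kb, and their ranges of 8.74 to 9.20 and 8.19 to 9.31 overlapped. JAK1 had 4.403 and LIFR 3.85 CPM per kb, with ranges of 4.10 to 4.81 and 3.75 to 4.08 that did not overlap. LIFR thus had the lowest level of the 6, under that of the receptor chain IL6ST with which it pairs. The merged exons of JAK1 are longer than its longest coding transcript, of 5258 bases, and with that length, a setting chosen after seeing the data, JAK1 had 11.03, IL6ST 12.02, STAT3 31.5, LIFR 4.43 and PIM1 46.1 CPM per kb. JAK1 then stood above SOCS3, at 8.73, while PIM1 and STAT3 stayed highest and LIFR lowest.

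**Figure D4:**
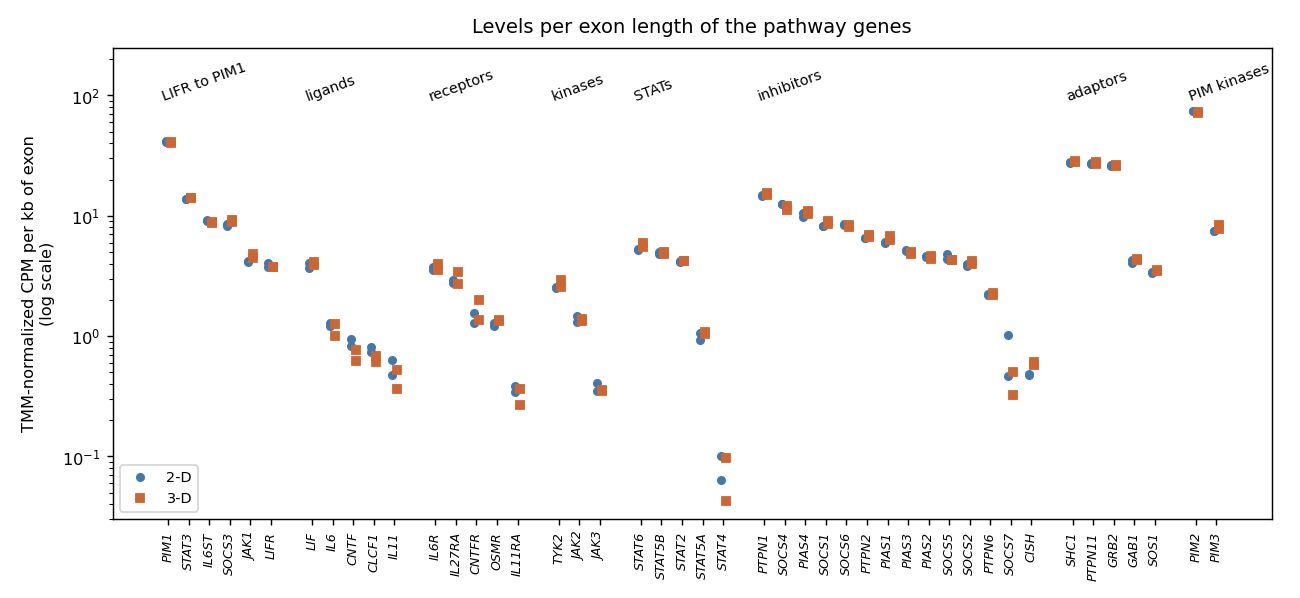
CPM per kb of merged exon (y axis, log scale) of the tested pathway genes that are reported, in 2-D (circles) and 3-D (squares) libraries, grouped by role. The points of the conditions lie on each other for most genes, PIM2 is highest at a mean of 73.6, and STAT4 is lowest at 0.0759.

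A wider list of 44 pathway genes held the other ligands, receptors, JAK and STAT proteins, inhibitors, adaptors and PIM kinases. Of these, 41 were tested, and edgeR called 0 of them in either direction, compared with 7.9% of all tested genes. At an unadjusted p below 0.05 there were 4, STAT6 and PIAS1 higher and SOCS4 and SOCS7 lower in 3-D grown cells. The share over all tested genes was 21.3%. DESeq2 also called 0, but it gave no adjusted p for low genes such as IL6, JAK2 and SOCS7 and could not call them. The list had 23 genes higher and 18 lower, with a median log2 fold change of 0.0137. Over all tested genes, 11272 were higher and 11283 lower. Leaving out 1 library changed the number called to 1 without 2-D replicate 2 (SOCS7), to 1 without 3-D replicate 1 (PIAS1) and to 2 without 3-D replicate 2 (SOCS4 and SOCS7).

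Among the ligands, LIF itself was transcribed by the cells, with 15.6 and 14.4 CPM in the 2-D and 15.1 and 15.8 CPM in the 3-D libraries. These ranges overlapped, and the log2 fold change was 0.04 (SE 0.08, edgeR adjusted p = 0.842). IL6, the founding cytokine of the family, had 5.42 ± 0.225 CPM in 2-D and 4.87 ± 0.816 CPM in 3-D grown cells (n = 2 each). IL6, CLCF1, IL11 and CNTF all had a lower mean in the 3-D libraries, and none of them was called. CLCF1 had 1.43 ± 0.0905 CPM in 2-D and 1.19 ± 0.106 CPM in 3-D grown cells (n = 2 each). IL11 and CNTF were under 2 CPM in every library. OSM had 1 count in a single 3-D library and IL27 had 0 counts in all 4 libraries, and with CTF1, at 5 to 14 counts per library, they were not tested.

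The ligand-specific receptors that act with IL6ST all had lower levels per kb than IL6ST. IL6R had 25.3 ± 1.05 CPM in 2-D and 26.3 ± 2.21 CPM in 3-D grown cells, and OSMR, the other partner for oncostatin M, had 9.01 ± 0.339 and 9.71 ± 0.165 CPM (n = 2 each). Per kb, IL6R had a mean of 3.69 CPM, close to the 3.85 of LIFR, and OSMR had 1.30. CNTFR had 2.97 CPM in 2-D and 3.53 CPM in 3-D grown cells, and IL11RA had 1.93 and 1.65 CPM. IL27RA, the receptor chain for IL-27, had 8.34 ± 0.320 and 9.09 ± 1.43 CPM (n = 2 each). Each of these ranges overlapped between the conditions, apart from that of OSMR.

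Of the other kinases, TYK2 had 21.7 ± 0.421 and 23.3 ± 2.03 CPM, JAK2 had 11.03 ± 0.824 and 10.7 ± 0.226 CPM, and JAK3, the kinase of lymphoid cytokine receptors, had 3.17 ± 0.379 and 2.97 ± 0.0657 CPM (n = 2 each). JAK1 thus had the highest level per kb of the 4 JAK kinases, above TYK2 at 2.64 and JAK2 at 1.38 CPM per kb.

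Of the other STAT factors, STAT5B had 59.3 ± 2.13 CPM in 2-D and 59.1 ± 1.73 CPM in 3-D grown cells (n = 2 each). STAT2 had 38.9 CPM in 2-D and 39.0 CPM in 3-D grown cells. STAT6, the factor of IL-4 signaling, had 38.3 and 38.3 CPM in the 2-D and 40.1 and 43.6 CPM in the 3-D libraries. The 3-D libraries were above the 2-D libraries, with a log2 fold change of 0.13 that missed the threshold (SE 0.06, edgeR adjusted p = 0.228). STAT4 was under 0.5 CPM in every library. Per kb of merged exons STAT3 had the highest level of the 7 STAT genes, 13.97 compared with 5.49 for STAT6.

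Among the inhibitors, CISH, with 4 STAT palindromes in its promoter window, had 2.44 and 2.40 CPM in the 2-D and 3.07 and 2.90 CPM in the 3-D libraries. The 3-D libraries were higher without overlap, yet at these low counts the log2 fold change of 0.30 was not called (SE 0.17, edgeR adjusted p = 0.361), with an interval from 0.948-fold to 1.604-fold. SOCS1 and SOCS2, which like CISH are induced by STATs, had log2 fold changes of 0.11 and 0.07 (SE 0.08 and 0.07, edgeR adjusted p = 0.502 and 0.618). Both were higher in each 3-D library without a call. SOCS4, SOCS5 and SOCS6 were at -0.12, -0.09 and -0.04 (SE 0.04, 0.07 and 0.05, edgeR adjusted p = 0.0904, 0.502 and 0.747). SOCS7 had 9.26 and 4.22 CPM in the 2-D and 2.92 and 4.52 CPM in the 3-D libraries, so that 2-D replicate 1 stood apart from the other 3. Its log2 fold change of -0.88 (SE 0.31, edgeR adjusted p = 0.114) became -0.19 without 2-D replicate 1 and -1.33 without 2-D replicate 2. PIAS1, a SUMO ligase that binds STAT proteins, had 63.7 ± 0.300 and 69.5 ± 3.84 CPM (n = 2 each), and its log2 fold change was 0.12 (SE 0.04, edgeR adjusted p = 0.104). The phosphatases PTPN1, PTPN2 and PTPN6 had log2 fold changes of 0.04, 0.05 and 0.01.

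The adaptors that link the receptor to RAS and ERK were all within 0.06 of 0 on the log2 scale. PTPN11 (SHP2), which docks at the same receptor tyrosine as SOCS3, had 366 ± 4.38 CPM in 2-D and 370.5 ± 10.7 CPM in 3-D grown cells, and GRB2 had 123.6 ± 2.106 and 124.1 ± 1.11 CPM (n = 2 each). Of the other PIM kinases, PIM2 had 205 ± 2.01 and 201 ± 2.80 CPM and PIM3 had 16.4 ± 0.0536 and 17.8 ± 1.08 CPM (n = 2 each). Per kb, PIM2 exceeded PIM1, with 73.6 compared with 41.2 CPM.

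**Figure D5:**
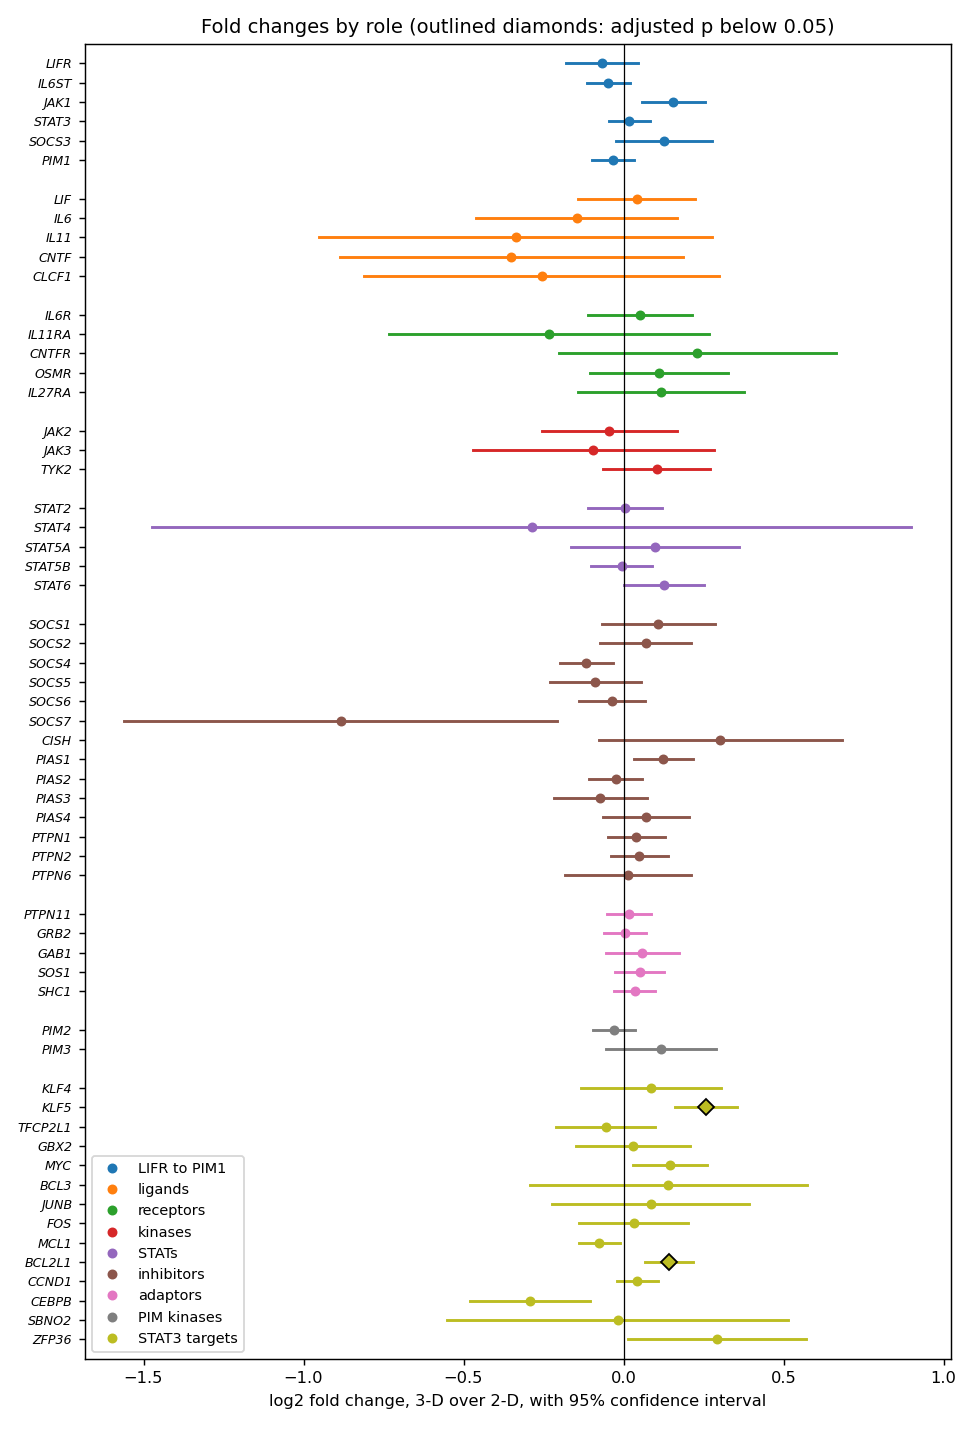
log2 fold change, 3-D over 2-D (x axis), with its 95% confidence interval for the reported genes of each role, outlined diamonds marking an adjusted p below 0.05. Only the STAT3 target list holds diamonds, KLF5 and BCL2L1, and the widest intervals belong to low genes such as STAT4 and to SOCS7.

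Genes that STAT3 is known to induce in ESCs or other cells were given by a list of 14, all of which were tested. edgeR called 2 of them, both higher in 3-D grown cells, where 4.54% of all tested genes were called higher. At an unadjusted p below 0.05 there were 4 higher (KLF5, BCL2L1, MYC and ZFP36) and 2 lower (CEBPB and MCL1). Over all tested genes, 21.3% had such a p in either direction. DESeq2 called KLF5 alone, where it called 3.7% of all tested genes. For low targets such as KLF4, SBNO2 and ZFP36, DESeq2 gave no adjusted p. Scaled by library size alone, the calls were KLF5 higher and MCL1 and CEBPB lower. KLF5, a Krüppel-like factor of ESC self-renewal, had 46.9 and 48.0 CPM in the 2-D and 56.2 and 57.2 CPM in the 3-D libraries. The conditions were well apart, and the log2 fold change was 0.26 (SE 0.04, edgeR adjusted p = 0.00336). KLF5 was called in every setting tried, with an adjusted p of 0.0208 or less. BCL2L1, an inhibitor of apoptosis, had 76.0 and 74.5 CPM in the 2-D and 83.2 and 82.7 CPM in the 3-D libraries. Its log2 fold change was 0.14 (SE 0.03, edgeR adjusted p = 0.0259), and it was not called by DESeq2 (adjusted p = 0.194), with library size as the only scaling (0.21), without 2-D replicate 1 (0.129) or without 2-D replicate 2 (0.301). BCL2L1 and MYC are also among the genes that the study picked from these libraries, so they are not independent evidence of a direction. Both genes are regulated by other pathways as well.

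The other 12 targets were not called. Among those that are transcription factors of ESCs, KLF4 had 9.32 ± 0.0817 CPM in 2-D and 9.91 ± 0.662 CPM in 3-D grown cells, TFCP2L1 had 23.0 ± 1.16 and 22.2 ± 0.0292 CPM, and GBX2 had 23.4 ± 0.968 and 23.9 ± 2.67 CPM (n = 2 each). Their log2 fold changes were 0.09, -0.06 and 0.03 (SE 0.10, 0.07 and 0.08, edgeR adjusted p = 0.701, 0.734 and 0.888). The interval of TFCP2L1 ran from 0.865-fold to 1.07-fold. CEBPB, a factor of the acute-phase response, had 15.4 and 15.6 CPM in the 2-D and 12.1 and 13.3 CPM in the 3-D libraries, a log2 fold change of -0.29 that missed the threshold (SE 0.09, edgeR adjusted p = 0.0599). It was called lower in 3 of the 10 alternatives, scaled by library size alone (edgeR adjusted p = 0.0219), without a filter on low counts (0.0425) and without 3-D replicate 2 (0.0107), in a range of 0.0107 to 0.237. MCL1, a BCL2 relative, had 438 ± 1.31 CPM in 2-D and 416 ± 1.04 CPM in 3-D grown cells (n = 2 each), and its log2 fold change was -0.08 (SE 0.03, edgeR adjusted p = 0.153, and 0.0107 when scaled by library size alone). MYC, a growth-promoting factor, had 51.5 and 48.0 CPM in the 2-D and 52.8 and 57.4 CPM in the 3-D libraries. Its log2 fold change was 0.15 (SE 0.05, edgeR adjusted p = 0.129), and it was called without 3-D replicate 1 alone (0.0150), in a range of 0.0150 to 0.626. ZFP36, which destabilizes cytokine mRNAs, had 4.79 and 5.22 CPM in the 2-D and 6.28 and 5.97 CPM in the 3-D libraries. These did not overlap, and its log2 fold change was 0.29 (SE 0.13, edgeR adjusted p = 0.207). SBNO2, an effector of IL-10 and STAT3, had 16.4 and 7.76 CPM in the 2-D and 13.0 and 10.9 CPM in the 3-D libraries. The 2-D libraries thus enclosed the 3-D libraries, and its log2 fold change of -0.02 was 0.63 without 2-D replicate 1 (edgeR adjusted p = 0.00083) and -0.45 without 2-D replicate 2 (edgeR adjusted p = 0.0162), in a range of 0.00083 to 0.979. In the list of 14, 10 genes were higher and 4 lower, with a median of 0.064. Over all tested genes, 11272 were higher and 11283 lower, with a median of -0.000135.

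Interferon targets, which are driven by STAT factors other than STAT3, were low in both conditions. Of 9 genes, 6 were tested, and edgeR called 0, with 0 at an unadjusted p below 0.05. With 6 genes, these counts cannot be told apart from the shares of 7.9% and 21.3% over all tested genes. DESeq2 gave no adjusted p for any of these 6, so it could not call them. ISG15 had 6.41 ± 0.0698 CPM in 2-D and 5.84 ± 0.0608 CPM in 3-D grown cells, and IRF1 had 5.23 ± 0.326 and 5.25 ± 0.0818 CPM (n = 2 each). IFIT2, OAS1 and GBP1 had at most 19 counts in a library and were not tested.

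For each of the 6 genes, the genes of most similar pattern were sought among protein-coding genes with a mean CPM within 2-fold, by the Euclidean distance between centered log2 CPM over the 4 libraries. The nearest were RASA2 and SASH1 for LIFR, APPL1 and ERBIN for IL6ST, SNAPC4 for JAK1, INTS8 and NCOA4 for STAT3, HSPB1 and SRBD1 for SOCS3, and HSPA2 for PIM1. The distances were 0.00427 to 0.018, among 2324 to 4574 genes compared for each, so with 4 libraries such matches are a description of shape alone.

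Copies and overlapping genes were checked as sources of reads in these counts, and for IL6ST the part from an antisense gene is not known. No near-identical copy was found, as the transcript of IL6ST aligned elsewhere with 76.9% and 92.1% identity and that of SOCS3 with 89.8%, and the copy IL6STP1 had 0 counts. Exons of LIFR share 629 bases with the antisense LIFR-AS1, which had 10 to 19 counts per library. Exons of IL6ST share 797 bases with the antisense ENSG00000262211, which had 251 to 501 counts compared with 1937 to 3773 for IL6ST, and whether the counting used the strand is not given in the sources used here. JAK1 overlaps 9 annotated genes, 2 of them with shared exon bases. LINC01359, on the same strand, shares 647 bases and had 5 to 15 counts per library, compared with 1135 to 1918 for JAK1, and RAVER2, on the opposite strand, shares 10 bases and had 713 to 1385 counts. For STAT3, SOCS3 and PIM1 the annotation held no overlapping gene.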

How the data were processed

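RNA-seq of Elf1 cells was performed by the authors on 2 libraries of 2-D and 2 of 3-D grown cells, prepared with depletion of ribosomal RNA. The deposited values are raw counts per gene and library. To make them, the authors trimmed the reads with Trim Galore 0.6.3, mapped them to hg38 with HISAT2 2.1.0 and counted them with featureCounts 1.6.4 on GENCODE, per the methods and the submitters' processing notes. A deposited table of DESeq2-normalized counts, with the authors' own fold changes, standard errors, Wald statistics and p-values, was not used.

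Of 60564 identifiers, 60295 were matched to GENCODE release 44, which gave symbols, positions and exon lengths, and the others held 0.122% of the counts. Counts were analyzed with edgeR 4.0.16 in R 4.3.3 (TMM, filterByExpr, quasi-likelihood test, condition alone, Benjamini-Hochberg adjustment), and the standard error is the log2 fold change over the square root of F. Procedures were tested on simulated data. Alternatives were DESeq2 1.42.0, DESeq2 size factors, library size alone, 2 other filters, a replicate block and each library left out, where the lone library is assumed to vary like the others. Copies were sought with minimap2 2.31-r1302. Counts of replicates were compared by chi-square, which per degree of freedom was 2.45 (2-D) and 4.39 (3-D), above sampling noise, and each was kept. With 2 libraries a condition and fewer counts in 3-D, low genes have wide intervals. These are for the fold change between the conditions and do not show how far single libraries spread.

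The genes named are the 6 pathway genes, listed ligands, receptors, kinases, STAT and SOCS genes, called genes of any list, overlapping genes, and the 2 nearest patterns for each of the 6. Some genes under this rule are not reported here. Adaptors, phosphatases, PIAS1, PIM2, PIM3 and targets without a call lie outside this rule and were named after their values were seen. The 6 genes and the lists were chosen with earlier results of these data known.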

Additional observations from a re-analysis of the deposited data

How the results depend on the processing

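The directions of LIFR, IL6ST, JAK1, SOCS3 and PIM1 were the same under all 10 alternatives. That says little, since the conditions did not overlap in these genes and leaving out a library could hardly turn a sign. The other alternatives used the same libraries. Scaling by library size alone turned STAT3 to -0.0461, and there the calls over all genes were 514 higher and 1879 lower, compared with 1024 and 758 under TMM, and IL6ST was called at -0.112 and 1 wider pathway gene (SOCS4) was called. JAK1 was called at 0.154 without a filter on low counts, which also called 1 wider pathway gene (SOCS7). DESeq2 called 834 genes in all, compared with 1782, and 1 STAT3 target (KLF5). Without 1 library each, all calls ranged from 974 to 2643, wider pathway calls from 0 to 2 and the log2 fold change of JAK1 from 0.107 to 0.208. The cause was not tested. With a replicate block, JAK1 was called (0.155, edgeR adjusted p = 0.035) and 1 wider pathway gene was called (SOCS7), with 2167 calls over all genes. The replicate numbers were not taken as a pairing, since the correlation of deviations between conditions was -0.00792. Interferon targets had 0 calls under each alternative that kept every library, though DESeq2 gave them no adjusted p. Low genes such as CISH and IL11 are limited by depth, with wide intervals.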
